A study of Mus musculus with 40 samples.

Results

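A set of 9 genes of natural killer (NK) cells was examined in bulk RNA-seq of 40 CT26 tumors. The 9 genes were taken from a fixed list of NK cell genes: 7 receptors (Ncr1, Klrb1c, Klrk1, Klre1, Klrd1, Klrc1, Klra7) and 2 transcription factors (Eomes, Tbx21), out of 54087 gene rows in the count table. All 9 passed the filter on low counts that left 14760 genes for testing. CT26 is a mouse colon carcinoma line, and 1000000 cells were injected under the skin of BALB/c mice. Antibodies were given into the peritoneum on days 6, 9 and 12, and tumors were taken on day 13. There were 8 groups of 5 mice. The isotype control group received motavizumab, a mouse IgG2a of irrelevant specificity. Another 4 groups received a single antibody, which was anti-PD-1 FcS, anti-TGF-β or 1 of 2 formats of an antibody to the GARP:TGF-β1 complex, named anti-GARP:TGF-β1 WT and anti-GARP:TGF-β1 FcD. The 3 combination groups received anti-PD-1 FcS with anti-GARP:TGF-β1 WT, with anti-GARP:TGF-β1 FcD or with anti-TGF-β, and are called here the WT, FcD and anti-TGF-β combinations. WT is a mouse IgG2a with an intact Fc part, FcD is the same antibody unable to bind Fcγ receptors, and FcS is an Fc-silent format. GARP is a membrane protein of regulatory T cells that presents latent TGF-β1, and anti-TGF-β blocks the cytokine from every source.

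NK cells are innate lymphocytes that kill tumor cells when signals from activating receptors outweigh those from inhibitory receptors. Most of their receptors in the mouse are lectin-like proteins encoded side by side in the NK gene complex of chromosome 6, while NKp46, the product of Ncr1, belongs to the immunoglobulin superfamily and lies elsewhere. T-bet and Eomes are the related T-box factors that drive NK cell maturation, and TGF-β is known to restrain NK cells. Activated CD8 T cells also express Klrk1, Klrd1, Klrc1, Klre1, Eomes and Tbx21, so these genes do not mark NK cells alone.

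In GRCm38 coordinates, Ncr1 (ENSMUSG00000062524) lay on chromosome 7 from 4337724 to 4345164. The 6 lectin-like genes lay on chromosome 6, in the order Klrb1c (ENSMUSG00000030325, 128778485 to 128789215), Klre1 (ENSMUSG00000050241, 129577905 to 129585827), Klrd1 (ENSMUSG00000030165, 129591782 to 129598775), Klrk1 (ENSMUSG00000030149, 129610323 to 129623864), Klrc1 (ENSMUSG00000030167, 129666015 to 129678973) and Klra7 (ENSMUSG00000067599, 130218605 to 130233322). Eomes (ENSMUSG00000032446) lay on chromosome 9 from 118478212 to 118486132, and Tbx21 (ENSMUSG00000001444) on chromosome 11 from 97098071 to 97115331. Exons of Klrb1c shared 413 bases with Gm44511 on the same strand, and exons of Eomes shared 118 bases with Gm33460 on the opposite strand. Klra7 belongs to the Ly49 family, whose members resemble each other and differ in number between mouse strains. Reads of BALB/c mice were aligned to a C57BL/6 reference, so the counts of Klra7 and Klrb1c are uncertain.

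The promoters of 4 receptors are shown because Ncr1 and Klrb1c varied together across tumors and Klrk1 and Klrc1 varied with Cd8a. They were also chosen for holding the RUNX motif TGTGGT, the core bound by RUNX factors of lymphocytes, so its presence in all 4 follows from the choice. A part of the motif in how these genes varied was not tested. Each sequence is from RefSeq, GRCm38.p6, in the direction of the gene, from 250 bases before to 50 bases after the annotated start, with TGTGGT or its reverse complement ACCACA in capitals. The Ncr1 window is chr7:4337465-4337764 (+), the Klrb1c window chr6:128788592-128788891 (−), the Klrk1 window chr6:129623815-129624114 (−) and the Klrc1 window chr6:129678924-129679223 (−).
Ncr1: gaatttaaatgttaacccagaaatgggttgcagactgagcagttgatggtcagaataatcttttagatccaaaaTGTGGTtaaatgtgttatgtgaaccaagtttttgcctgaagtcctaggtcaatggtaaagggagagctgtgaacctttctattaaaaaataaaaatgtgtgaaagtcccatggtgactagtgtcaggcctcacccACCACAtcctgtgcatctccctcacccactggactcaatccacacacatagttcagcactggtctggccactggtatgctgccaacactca
Klrb1c: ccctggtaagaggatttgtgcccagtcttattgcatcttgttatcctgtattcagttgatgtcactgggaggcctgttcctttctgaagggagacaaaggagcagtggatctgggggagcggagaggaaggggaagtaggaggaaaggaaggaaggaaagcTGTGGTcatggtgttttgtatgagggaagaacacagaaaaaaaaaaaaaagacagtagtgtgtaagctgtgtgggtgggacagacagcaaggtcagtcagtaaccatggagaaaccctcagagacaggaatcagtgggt
Klrk1: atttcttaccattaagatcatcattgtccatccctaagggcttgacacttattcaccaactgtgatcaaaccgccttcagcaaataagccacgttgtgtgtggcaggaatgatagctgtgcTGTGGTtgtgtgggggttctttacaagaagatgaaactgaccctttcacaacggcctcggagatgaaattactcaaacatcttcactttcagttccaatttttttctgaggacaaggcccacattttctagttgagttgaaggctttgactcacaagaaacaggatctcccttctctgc
Klrc1: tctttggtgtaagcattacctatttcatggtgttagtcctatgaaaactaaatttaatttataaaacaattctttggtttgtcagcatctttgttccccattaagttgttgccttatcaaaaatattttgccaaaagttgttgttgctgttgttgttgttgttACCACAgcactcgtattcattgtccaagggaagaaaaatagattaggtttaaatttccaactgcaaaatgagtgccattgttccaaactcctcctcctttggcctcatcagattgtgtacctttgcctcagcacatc

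The motif began at positions -176 and -41 from the start in Ncr1, at -89 in Klrb1c, at -129 in Klrk1 and at -87 in Klrc1. The first of the 2 annotated starts of Klre1 also had it, at -229. The windows of Klra7, Eomes and Tbx21 did not hold these letters, and Klrd1 is named only. On both strands, TGTGGT occurred in 16.8% of 32851 promoter windows of this length. The T-box core AGGTGT occurred in 13.7% of all windows and in none of these 8 genes. The STAT motif TTCNNNGAA occurred in 8.3% of all windows and in 1 of the 8 genes, Klra7, at -189 and 9 from the first of its 2 annotated starts and not in the window of the second.

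Library totals ranged from 11931730 to 20680548 counts with a median of 14030511. The 9 genes were low in these tumors, with a median count per library from 19.5 for Klrb1c to 343 for Klrk1, so counting error weighed most on Klrb1c and Klra7. Krt20, an epithelial gene of the colon, ranged from 35.1 to 178.5 CPM (counts scaled to a library total of 1000000), with a median of 76.6. Other epithelial genes had lower medians, 1.24 CPM for Krt8, 10.5 for Krt18, 1.94 for Cdh1 and 0.546 for Epcam. Single tumors reached 171.7, 109.2, 21.6 and 39.1 CPM of these, and Epcam was at 0 in at least 1 tumor. Vim, a mesenchymal gene, ranged from 3453 to 6235 CPM. Libraries numbered 41 to 60 had 0 to 6 counts of Xist and 91 to 428 of the Y-linked Ddx3y, while libraries 61 to 80 had 784 to 12701 counts of Xist and 0 of Ddx3y. Every group held 2 or 3 libraries of each part, so differences are also given within parts. Of the 40 libraries, 2 stood apart in these genes. Library 77, replicate 5 of the WT combination, was the highest of 40 for 8 of the 9 genes, and library 47, replicate 1 of anti-PD-1 FcS, was the lowest for 6. Both were among the 6 libraries whose B cell markers (Ms4a1, Cd79a, Cd79b) summed to over 20 CPM, at 26.6 and 23.3, while the 34 others reached at most 9.30. The main comparisons are also given without libraries 47 and 77. The 2 were picked by their extreme values in these 9 genes, so leaving them out favors a smaller spread of the same genes. Passes gained only in that way are not separate evidence. The 9 genes also varied together across tumors, so counts of them are not counts of independent results. In bulk tumor RNA, fewer NK cells and less RNA per cell cannot be told apart.

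Per kilobase of exon, the mean level over 40 mice was highest for Klrd1 at 6.86 CPM per kb, followed by Ncr1 at 4.89, Klrk1 at 3.60 and Klrc1 at 3.13. Tbx21 followed at 1.52, Klra7 at 1.35, Eomes at 0.967, Klre1 at 0.945 and Klrb1c at 0.501. Ncr1, an activating receptor found almost only on NK cells and related innate lymphocytes, ranged 3.47-fold from the lowest to the highest tumor (3.85 to 13.4 CPM, median 7.13). Klrc1, which encodes the inhibitory receptor NKG2A, ranged 46.7-fold (0.739 to 34.5 CPM, median 5.11). Klrd1, its partner CD94, ranged 20.4-fold, Klre1 21.7-fold and Klrk1, which encodes the activating receptor NKG2D, 17.1-fold. Tbx21 ranged 16.2-fold and Eomes 12.4-fold. With libraries 47 and 77 left out, Klrc1 ranged 11.9-fold over the 38 other tumors (1.26 to 15.0 CPM), Klrd1 7.02-fold, Klre1 3.61-fold, Klrk1 7.51-fold, Tbx21 7.39-fold and Eomes 7.80-fold, while Ncr1 stayed at 3.47-fold.

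**Figure D1:**
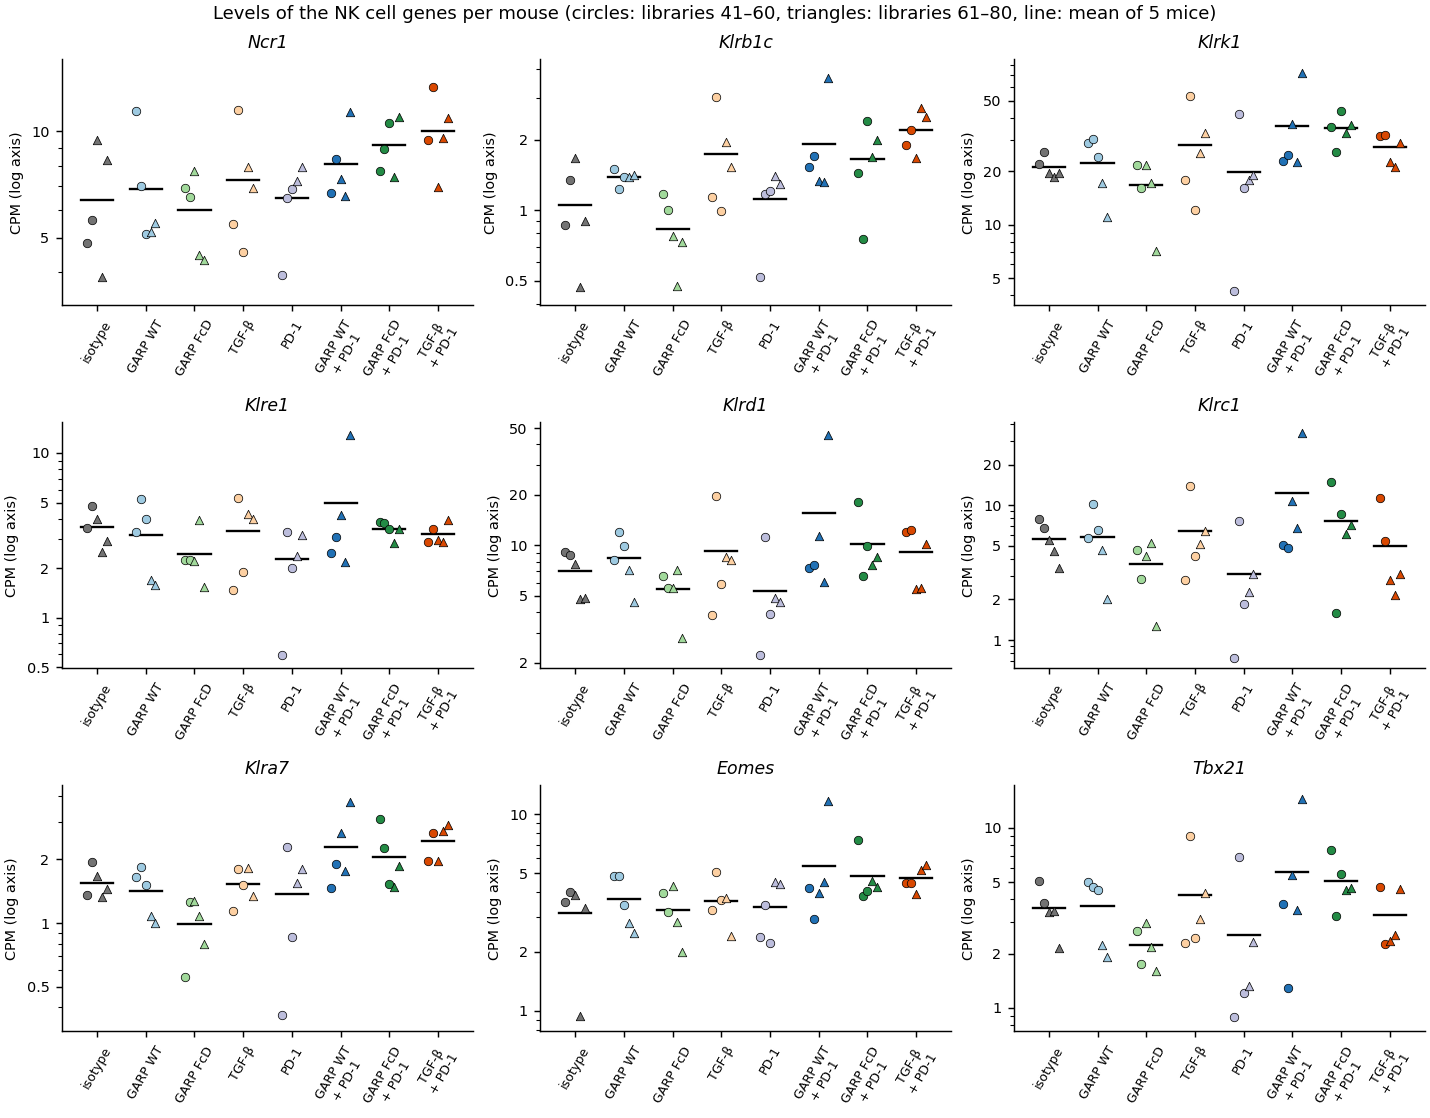
Levels of the 9 genes in each tumor, in CPM on a log axis, by treatment group; circles are libraries 41 to 60, triangles libraries 61 to 80, and lines are means of 5 mice. Ncr1 stays between 3.85 and 13.4 CPM, while Klrc1 spans 0.739 to 34.5 CPM, and library 77 is the top triangle of the WT combination in all 9 panels.

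Blocking TGF-β together with PD-1 went with the highest group means of Ncr1, Klrb1c and Klra7. Ncr1 was at 3.85, 4.82, 5.60, 8.31 and 9.44 CPM under isotype control and at 6.95, 9.47, 9.55, 10.9 and 13.4 CPM under the anti-TGF-β combination. The groups overlapped, with 4 of 5 treated tumors above every control. The log2 fold change was 0.65 (SE 0.257, edgeR adjusted p = 0.178). Klrb1c, the NK1.1 receptor gene, was at 0.471, 0.865, 0.90, 1.34 and 1.67 CPM under isotype control and at 1.66, 1.89, 2.21, 2.49 and 2.72 CPM under this combination. Only the lowest treated tumor fell within the control range, and the log2 fold change was 1.06 (SE 0.335, edgeR adjusted p = 0.137). Klra7, which encodes the inhibitory MHC class I receptor Ly49G, was at 1.34, 1.36, 1.45, 1.67 and 1.94 CPM under isotype control and at 1.97, 1.97, 2.66, 2.72 and 2.90 CPM under this combination. The groups did not overlap, as for 1.73% of all genes in this direction, and the log2 fold change was 0.65 (SE 0.305, edgeR adjusted p = 0.228). These 3 genes had unadjusted p-values under 0.05 and were higher, 3 of 9 against 8.49% of all genes tested. None of the 9 passed the adjusted threshold of 0.05, and neither did any gene (0%). Klrc1 (log2 fold change -0.19, SE 0.580), Tbx21 (-0.12, SE 0.483) and Klre1 (-0.14, SE 0.406) had fitted values below 0, so 6 of 9 were above 0, where 52.9% of all genes were. The median of the 9 was 0.38, against 0.02 over all genes. Within libraries 41 to 60 and 61 to 80, the differences of mean log2 CPM were 1.09 and 0.41 for Ncr1, 0.84 and 1.19 for Klrb1c, and 0.46 and 0.70 for Klra7. The B cell marker sum reached 68.6 CPM in replicate 5 of this combination against 1.48 to 3.74 CPM under isotype control, and its part in the result was not tested. Without the 6 libraries rich in B cell markers, 3 of the 9 had unadjusted p-values under 0.05 and were higher, against 8.47% of genes. Klrb1c was called without isotype control replicate 3 (edgeR adjusted p = 0.0418), where 4.88% of all genes were called, and without replicate 1 of the combination (edgeR adjusted p = 0.0354), where 13.4% were.

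The WT combination showed higher fitted values for all 9 genes than isotype control, where 51.9% of all genes were above 0. The median log2 fold change of the 9 was 0.77, against 0.01 over all genes. Klrd1 was at 4.79, 4.85, 7.71, 8.74 and 9.15 CPM under isotype control and at 6.06, 7.29, 7.60, 11.4 and 45.3 CPM under the WT combination. Apart from library 77 at 45.3 CPM, only 1 treated tumor lay above every control. The log2 fold change was 1.14 (SE 0.463, edgeR adjusted p = 0.178). Eomes was at 0.943, 3.33, 3.59, 3.89 and 4.03 CPM under isotype control and at 2.93, 3.98, 4.23, 4.53 and 11.7 CPM under the WT combination, with a log2 fold change of 0.79 (SE 0.320, edgeR adjusted p = 0.177). The groups overlapped, with the lowest control and the highest treated tumor each far from the rest of its group. Klrb1c had a log2 fold change of 0.86 (SE 0.334, edgeR adjusted p = 0.170). These 3 genes had unadjusted p-values under 0.05, 3 of 9 against 13.2% of all genes higher at that threshold, and none of the 9 or of all genes passed the adjusted threshold (0%). Klrk1 (0.77) and Klrc1 (1.13) had unadjusted p-values of 0.0554 and 0.0560. Without libraries 47 and 77, none of the 9 had an unadjusted p under 0.05 (3.26% of genes were higher at that threshold), and the median fell to 0.28 with 7 of 9 above 0. Klre1, at 0.49 with all mice, was then at -0.24, and Tbx21, at 0.66, was then at -0.04. The parts of the series also differed. In libraries 41 to 60 the WT combination differed from isotype control by -0.56 in mean log2 CPM for Klrc1, -0.94 for Tbx21, -0.11 for Eomes, -0.26 for Klrd1, 0.52 for Klrb1c and 0.52 for Ncr1. In libraries 61 to 80, which include library 77, the same differences were 1.6, 1.11, 1.31, 1.36, 0.94 and 0.28.

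The FcD combination differed from isotype control most in Klrk1 among the 9 genes. Klrk1 was at 18.5, 19.6, 19.7, 21.9 and 25.8 CPM under isotype control and at 25.7, 33.2, 35.6, 36.8 and 43.9 CPM under this combination. In 4 of 5 treated tumors the level lay above every control, and the fifth fell just under the highest control. The log2 fold change was 0.73 (SE 0.387, edgeR adjusted p = 0.328). Ncr1 was at 7.42, 7.71, 8.90, 10.6 and 11 CPM, with 2 of 5 tumors above every control and a log2 fold change of 0.51 (SE 0.257, edgeR adjusted p = 0.310). Eomes had a log2 fold change of 0.61 (SE 0.321) with 4 of 5 tumors above every control. None of the 9 had an unadjusted p under 0.05, against 10.7% of genes higher at that threshold, and no gene passed the adjusted one (0%). The median of the 9 was 0.51, against -0.00 over all genes, and 8 of 9 fitted values lay above 0, where 49.3% of all genes did, with Klre1 at -0.03 (SE 0.405). The comparisons of the 3 combinations share the same 5 isotype control mice. Without libraries 47 and 77, neither of which belongs to these groups, 4 of 9 had unadjusted p-values under 0.05, against 14.5% of genes. These libraries were picked by the same 9 genes, so this count is not separate evidence. With only these 2 groups in the fit Klrk1 was called (edgeR adjusted p = 0.0456), as were 1.3% of all genes.

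**Figure D2:**
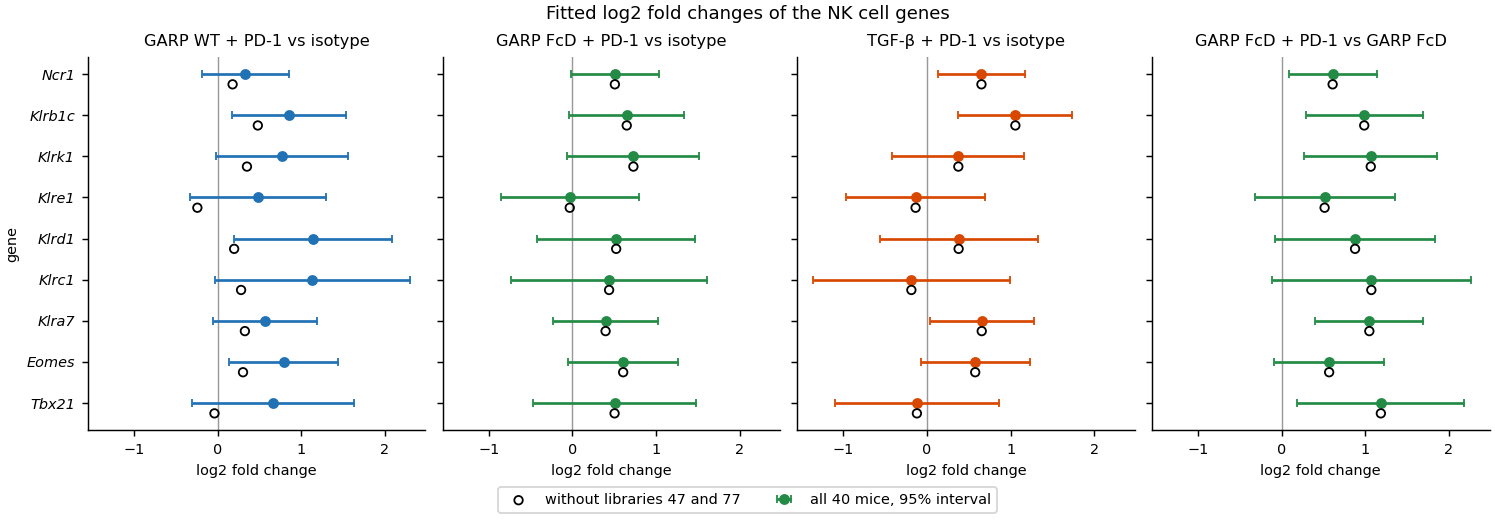
Fitted log2 fold changes of the 9 genes with 95% intervals in 4 comparisons, from the fit over 40 mice (filled) and without libraries 47 and 77 (open). The open circles lie left of the filled ones for all 9 genes in the WT combination, where Klre1 moves from 0.49 to -0.24, and on them in the other panels.

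No single antibody moved the 9 genes past the adjusted threshold against isotype control, where 0% of genes passed in each of these 4 comparisons. With anti-GARP:TGF-β1 FcD alone, 8 of 9 fitted values lay below 0, with a median of -0.35, while 49% of all genes lay above 0. Klra7 was at 0.557, 0.797, 1.08, 1.25 and 1.27 CPM, below all 5 isotype control tumors, as for 0.0745% of genes in this direction. Its log2 fold change was -0.65 (SE 0.318, edgeR adjusted p = 1), and it was the only 1 of the 9 with an unadjusted p under 0.05 and lower (0.21% of genes). Under anti-TGF-β alone, Klrb1c was at 0.988, 1.14, 1.53, 1.95 and 3.04 CPM with a log2 fold change of 0.71 (SE 0.337, edgeR adjusted p = 1), and it was the 1 gene of 9 with an unadjusted p under 0.05 and higher (1.77% of genes). Under anti-PD-1 FcS alone, Klrc1 was at 0.739, 1.85, 2.29, 3.10 and 7.59 CPM, below every control in 4 of 5 tumors, with a log2 fold change of -0.85 (SE 0.592). Neither anti-PD-1 FcS (0.603% of genes higher) nor anti-GARP:TGF-β1 WT (0.583% of genes higher) gave any of the 9 an unadjusted p under 0.05.

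Adding anti-PD-1 FcS to anti-GARP:TGF-β1 FcD went with higher levels of 3 of the 9 genes in every tumor. Klra7 was at 1.48, 1.52, 1.86, 2.26 and 3.10 CPM under the FcD combination, all above the FcD tumors, whose highest was at 1.27. The log2 fold change was 1.05 (SE 0.316, edgeR adjusted p = 0.128). Klrk1 was at 7.11, 16.0, 17.2, 21.7 and 21.7 CPM under anti-GARP:TGF-β1 FcD alone and at 25.7 CPM or more in every tumor of the combination, with a log2 fold change of 1.06 (SE 0.391, edgeR adjusted p = 0.146). Tbx21 was at 1.59, 1.75, 2.16, 2.66 and 2.97 CPM under the single antibody and at 3.24, 4.52, 4.65, 5.53 and 7.49 CPM under the combination, a log2 fold change of 1.18 (SE 0.490, edgeR adjusted p = 0.177). In these 3 genes the groups did not overlap, as for 2.65% of all genes in this direction. Klrb1c (0.99) and Ncr1 (0.61) also had unadjusted p-values under 0.05, which made 5 of 9, against 13% of all genes higher at that threshold. None passed the adjusted threshold, nor did any gene (0%). All 9 fitted values were above 0, with a median of 0.99, where 49% of all genes were above 0, and all 9 differences were above 0 in both parts of the series. For Klra7 they were 1.25 and 0.62 in mean log2 CPM, for Klrk1 0.87 and 1.32, and for Tbx21 1.19 and 1.03. Without libraries 47 and 77, which belong to neither group but enter the shared estimate of spread, 3 of 9 passed the adjusted threshold: Klra7 (1.05, edgeR adjusted p = 0.0373), Klrk1 (1.06, adjusted p = 0.0437) and Klrb1c (0.99, adjusted p = 0.0461). In that fit 6.11% of all genes passed. The 2 libraries were picked by their values in the 9 genes and the fold changes of these 3 stayed as they were, so the calls are not separate evidence. Klrb1c was also called without replicate 2 of the combination (edgeR adjusted p = 0.0472; 4.81% of all genes called), and Klrk1 and Tbx21 with only these 2 groups in the fit (edgeR adjusted p = 0.0469 for each), where 3.49% of all genes were.

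The WT combination against anti-PD-1 FcS alone gave 8 of 9 genes an unadjusted p under 0.05, all higher, against 11.2% of all genes, and again none passed the adjusted threshold (0% of genes). Klrc1 had the largest log2 fold change of the 9, 1.99 (SE 0.595, edgeR adjusted p = 0.231). It was at 4.83, 5.03, 6.79, 10.8 and 34.5 CPM under the combination, and 1 anti-PD-1 FcS tumor, at 7.59, lay inside that range. Klrd1 followed at 1.53 (SE 0.471), Tbx21 at 1.16 (SE 0.485) and Klre1 at 1.11 (SE 0.409). Without replicate 2 of anti-PD-1 FcS, which was at 7.59 CPM of Klrc1, Klrc1, Klrd1, Tbx21 and Klrk1 passed the adjusted threshold (edgeR adjusted p from 0.0414 to 0.0496), 4 of 9 where 3.6% of all genes did. This comparison holds both libraries 47 and 77. Without them none of the 9 had an unadjusted p under 0.05, against 1.23% of genes, and the median log2 fold change went from 0.85 to 0.21. The anti-TGF-β combination against anti-PD-1 FcS gave 3 of 9 an unadjusted p under 0.05 and higher (7% of genes; 0.00678% passed the adjusted threshold). These were Klrb1c (0.96, SE 0.334, edgeR adjusted p = 0.186), Klra7 (0.83, SE 0.308) and Ncr1 (0.63, SE 0.257). Klrb1c did not overlap between these groups, with the anti-PD-1 FcS tumors at 0.517, 1.17, 1.21, 1.3 and 1.4 CPM, as for 0.732% of genes. The FcD combination against anti-PD-1 FcS gave 3 of 9, Klrk1 (0.81), Klrc1 (1.29) and Tbx21 (1.00), against 6.46% of genes. Leaving out libraries 47 and 77 brought these counts to 2 for the anti-TGF-β combination (9.49% of genes) and 0 for the FcD combination (7.69% of genes).

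Against the same antibody without anti-PD-1 FcS, Klra7 was the 1 gene of 9 with an unadjusted p under 0.05 in both other combinations. It had a log2 fold change of 0.69 (SE 0.305, edgeR adjusted p = 0.137) for the WT combination over anti-GARP:TGF-β1 WT, where 16.6% of genes were higher at that threshold. For the anti-TGF-β combination over anti-TGF-β it was 0.68 (SE 0.306, edgeR adjusted p = 0.50), where 3.96% of genes were. In the second of these the groups did not overlap, as for 0.149% of genes, with anti-TGF-β tumors at 1.14, 1.35, 1.52, 1.79 and 1.82 CPM. Without libraries 47 and 77, none of the 9 passed the unadjusted threshold for the WT combination over its single antibody (7.89% of genes), and 1 did for anti-TGF-β (4.99%).

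The interaction contrasts asked whether an antibody changed a gene more in the presence of anti-PD-1 FcS than in its absence. All 9 fitted values were above 0 for each of the 3 antibodies, where 50.8%, 49% and 44.8% of all genes were above 0 for WT, FcD and anti-TGF-β. The 3 contrasts share the anti-PD-1 FcS and isotype control mice, and the 9 genes varied together across tumors. A count of 9 of 9 is therefore not made of 9 independent results. For FcD, 4 of 9 had an unadjusted p under 0.05 and were higher, against 2.45% of genes: Tbx21 (1.68, SE 0.691), Klrc1 (1.92, SE 0.832), Klra7 (1.22, SE 0.443) and Klrk1 (1.15, SE 0.551), each with an edgeR adjusted p of 0.787. For WT, Klrc1 (1.92, SE 0.822) and Klre1 (1.26, SE 0.574) did so, against 4.3% of genes, with an edgeR adjusted p of 0.483. For anti-TGF-β none did (0.752% of genes). None of the 9 passed the adjusted threshold in these contrasts, and neither did any gene (0%). With libraries 47 and 77 left out the counts were 3 for FcD (3.99% of genes), 0 for WT (0.984%) and 0 for anti-TGF-β (1.15%).

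Comparing FcD with WT asks about the Fc part of anti-GARP:TGF-β1, and 0 of 9 genes passed the adjusted threshold with or without anti-PD-1 FcS, as did 0% of all genes. Between the FcD and WT combinations the fitted differences ran from -0.69 for Klrc1 (95% interval -1.85 to 0.46) to 0.18 for Ncr1 (-0.34 to 0.70), and the intervals leave room for changes of more than 1 on the log2 scale in Klrc1, Klrd1, Klre1 and Tbx21. Without anti-PD-1 FcS, Klrb1c was at 0.474, 0.730, 0.779, 1.00 and 1.18 CPM with FcD and at 1.23, 1.39, 1.39, 1.42 and 1.5 CPM with WT. These groups did not overlap, as for 0.224% of genes, with a log2 fold change of -0.73 (SE 0.344, edgeR adjusted p = 0.999). It was the only 1 of the 9 with an unadjusted p under 0.05, and 0.711% of genes were lower at that threshold. Klrb1c was also lower with FcD than with anti-TGF-β alone (-1.05, SE 0.342, edgeR adjusted p = 0.977), again as 1 of 9 at the unadjusted threshold, where 2.91% of genes were lower. Between selective and general blockade, the WT combination differed from the anti-TGF-β combination most in Klrc1, by 1.32 (SE 0.578, edgeR adjusted p = 0.0973). It was the only 1 of the 9 with an unadjusted p under 0.05, where 20.1% of genes were higher at that threshold and 18.2% of genes passed the adjusted one. Klrc1 was at 2.14, 2.80, 3.10, 5.45 and 11.3 CPM under the anti-TGF-β combination, so the groups overlapped. Klrc1 was called without replicate 1 of the anti-TGF-β combination (edgeR adjusted p = 0.0182), where 35.5% of all genes were called, and without libraries 47 and 77 none of the 9 passed the unadjusted threshold, where 16.8% of genes were higher. Ncr1 (-0.32, 95% interval -0.84 to 0.20) and Klra7 (-0.08, -0.69 to 0.52) were not distinguishable between the WT and anti-TGF-β combinations. Between the FcD and anti-TGF-β combinations 0 of 9 had an unadjusted p under 0.05, where 15.8% of genes were higher at that threshold.

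Across the 40 tumors the 9 genes fell along a range, from those that tracked Ncr1 to those that tracked the T cell gene Cd8a. Of 36 pairs of the 9 genes and 27 pairs with Cd8a, Cd3e or Ptprc, 61 of 63 had an adjusted permutation p under 0.05 for Pearson r. The share over all gene pairs was not computed, and mice were permuted across treatment groups, so group differences enter r. With the group mean taken off each mouse, r was 0.71 for Ncr1 and Klrb1c, 0.56 for Ncr1 and Eomes, and 0.90 for Klrd1 and Klrc1. For Klra7 it went from 0.62 to 0.45 with Ncr1 and from 0.60 to 0.36 with Klrb1c. Ncr1 and Klrb1c had r = 0.77 (Spearman rho = 0.74, n = 40, permutation p = 1e-05 for both, the smallest that 100000 permutations give). The value was 0.73 without the 2 mice farthest from the median, 0.76 in libraries 41 to 60, 0.80 in libraries 61 to 80 and 0.73 without libraries 47 and 77. Ncr1 and Eomes had r = 0.66 (rho = 0.70), with 0.63 without the 2 farthest mice, and 0.50 and 0.82 within the 2 parts. Klrd1 and Klrc1, whose products form the CD94/NKG2A receptor, had the highest r of the 36 pairs, 0.90 (rho = 0.87), with 0.85 without the 2 farthest mice, and 0.92 and 0.89 within the parts.

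Cd8a, the CD8 T cell coreceptor, had r = 0.89 with Klrc1 (rho = 0.88) and r = 0.86 with Tbx21 (rho = 0.83). Leaving out the 2 farthest mice gave 0.85 and 0.80. The first part of the series gave 0.88 and 0.89, and the second gave 0.91 and 0.81. For Klrd1 and Cd8a r was 0.84 (rho = 0.79). Ncr1 and Cd8a had r = 0.26 (rho = 0.15), with adjusted permutation p of 0.111 for r and 0.356 for rho, and r of 0.29 and 0.21 within the parts. Without the 2 farthest mice that r was 0.33. Klrb1c and Cd8a had r = 0.32 (rho = 0.21), with 0.27 without the 2 farthest mice, and 0.51 and 0.17 within the parts. Eomes and Cd8a differed most between the parts, with r of 0.78 in libraries 41 to 60 and 0.26 in libraries 61 to 80 (pooled r = 0.44, rho = 0.31, 0.48 without the 2 farthest mice). Leaving out libraries 47 and 77 brought r with Cd8a to 0.09 for Ncr1, 0.11 for Klrb1c and 0.26 for Eomes, and to 0.85 for Klrc1, 0.80 for Tbx21 and 0.78 for Klrd1. Ptprc, which encodes the leukocyte antigen CD45, had r = 0.87 with Klrk1 (rho = 0.85, 0.91 without the 2 farthest mice, 0.88 in each part) and r = 0.54 with Ncr1 (rho = 0.48, 0.60 without the 2 farthest mice, 0.59 and 0.50 within the parts). Both lymphocyte types are counted in the same libraries, so these values describe tumors and not cells.

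Ordered by rho with Ncr1 over the 14759 other genes tested, Klrb1c ranked 18, Eomes 51, Klra7 175 and Klrk1 199. Klrd1 ranked 791 and Klre1 1115, while Tbx21 ranked 1759 and Klrc1 2368. Ordered by rho with Cd8a, Klrc1 ranked 11, Tbx21 26, Klrd1 38, Klre1 110 and Klrk1 119, while Klra7, Eomes, Klrb1c and Ncr1 ranked 3230, 3747, 4881 and 5594. The 10 other genes with the highest rho to Ncr1 over the 40 mice were Epsti1 (0.80), Cd69 (0.79), Phf11a (0.78), Cd40 (0.78), Ifi44l (0.76), Irf7 (0.76), Lmo2 (0.76), Fuca1 (0.76), Ncf4 (0.75) and Trdc (0.75). Epsti1, Ifi44l and Irf7 are known interferon-stimulated genes, Cd69 is an early activation marker of lymphocytes, and Trdc is the constant region of the T cell receptor delta chain.

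**Figure D3:**
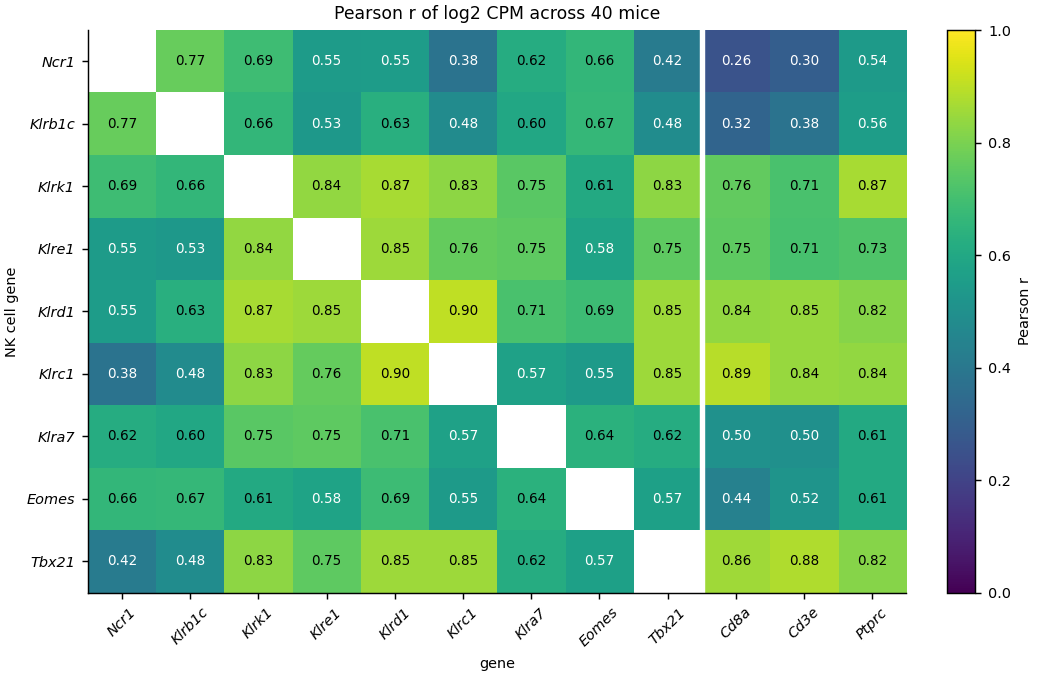
Pearson r of log2 CPM across 40 mice for each of the 9 genes (rows) against the 9 genes and against Cd8a, Cd3e and Ptprc (columns right of the white line). Ncr1 has its lowest value with Cd8a, 0.26, while Klrc1 and Tbx21 reach 0.89 and 0.86 with it.

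The level of Ncr1 relative to Ptprc was compared with isotype control in each group, as 1 of 3 log2 ratios. The log2 ratio of Ncr1 to Ptprc in the isotype control tumors was -4.97, -4.94, -4.69, -3.99 and -3.48, and in the anti-TGF-β combination it was -4.66, -3.81, -3.73, -3.73 and -3.36, so the groups overlapped. The difference of means was 0.56 (SE 0.364, exact permutation p = 0.151, adjusted p = 0.396 over 21 tests), and it was 0.79 without replicate 3 of isotype control and 0.42 without replicate 4. In the WT combination it was -0.49 (SE 0.442, exact permutation p = 0.325), which went to -0.19 without library 77 and to -0.25 without replicate 3 of isotype control, and in the FcD combination -0.22 (SE 0.417, exact permutation p = 0.635). The ratio of Cd8a to Ptprc under anti-PD-1 FcS alone was lower by a log2 difference of -1.55 (SE 0.522, exact permutation p = 0.0159, adjusted p = 0.333), with 4 of 5 tumors below every control. Permuting within the parts gave 0.0200. In the WT, FcD and anti-TGF-β combinations the same difference was -0.56, -0.85 and -0.73 (exact permutation p = 0.135, 0.0794 and 0.119). Without replicate 5 of isotype control, the control with the lowest ratio, these were -0.84, -1.13 and -1.01 (exact permutation p = 0.0159 each). Other mice left out weakened them, to -0.44 without replicate 2 of the WT combination (exact permutation p = 0.246). They went to -0.64 and -0.46 without replicate 4 of the FcD and of the anti-TGF-β combination (exact permutation p = 0.119 and 0.230). The 4 comparisons share the isotype control mice. The ratio of Eomes to Tbx21 differed by 1.00 with anti-PD-1 FcS alone (exact permutation p = 0.135), where 4 of 5 tumors lay above every control, by 0.78 with anti-GARP:TGF-β1 FcD alone (exact permutation p = 0.0556) and by 0.84 with the anti-TGF-β combination (exact permutation p = 0.0794). Without replicate 4 of isotype control, library 74, these differences were 0.64, 0.41 and 0.47. None of the 21 adjusted p-values was under 0.05, but the smallest unadjusted p that 5 against 5 allows is 0.00794, which for a lone ratio adjusts to 0.167, so a single ratio could not have passed.

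**Figure D4:**
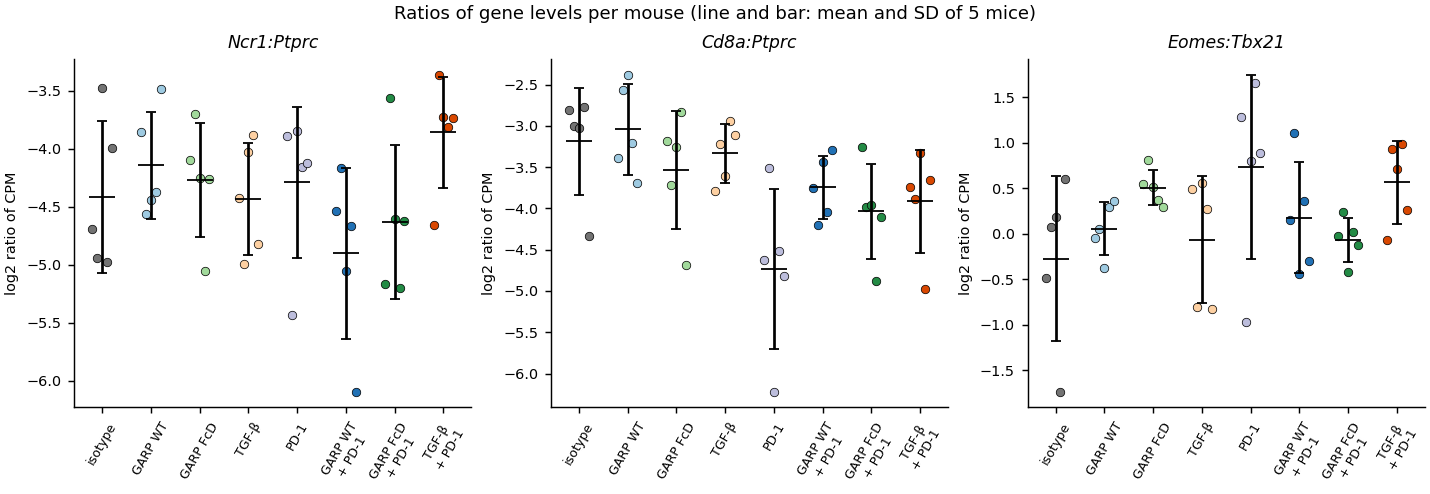
Log2 ratios of CPM per mouse, by group, for Ncr1 to Ptprc, Cd8a to Ptprc and Eomes to Tbx21; circles are mice, lines and bars are the mean and SD of 5 mice. For Cd8a to Ptprc, 4 of the 5 anti-PD-1 FcS tumors lie below all isotype control tumors, and for Ncr1 to Ptprc every group overlaps the isotype control.

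Other genes of the NK cell pathway were examined as lists against isotype control, where none passed the adjusted threshold and 13.2%, 10.7% and 8.49% of all genes were higher at the unadjusted one under the WT, FcD and anti-TGF-β combinations, while 7.47%, 5.85% and 11.6% were lower. Of 13 adaptor and signaling genes tested, 9 had an unadjusted p under 0.05 and were higher under the WT combination, 6 under the FcD combination and 0 under the anti-TGF-β combination, with medians of 0.93, 0.65 and 0.34. Tyrobp, the DAP12 adaptor of activating receptors, had log2 fold changes of 0.93 (SE 0.31), 0.72 (SE 0.31) and 0.58 (SE 0.31) in this order, and Fcer1g, the Fc receptor gamma chain, 0.96, 0.72 and 0.62. Ptpn6, the SHP-1 phosphatase recruited by inhibitory receptors, was at 0.83, 0.65 and 0.40. Macrophages and neutrophils also express these 3 genes. Of 14 effector genes, 9, 6 and 6 were higher at that threshold, with medians of 0.97, 0.68 and 0.57. Gzmb, which encodes granzyme B, had log2 fold changes of 1.39 (SE 0.40), 1.06 (SE 0.40) and 0.88 (SE 0.40), and lay above every control in 5, 4 and 4 of 5 tumors. A complete separation in this direction was seen in 1.35%, 1.96% and 1.73% of all genes. Prf1, the pore-forming perforin, had 0.87, 0.51 and 0.23, and Serpinb9, an inhibitor of granzyme B, 0.65, 0.68 and 0.33. Of 12 other lectin-like receptor genes, 8, 2 and 3 were higher at that threshold. Klrb1b, an inhibitory receptor of the same family as Klrb1c, had log2 fold changes of 1.06, 1.28 and 1.05 (SE 0.45 each) and lay above every control in 5, 5 and 4 of 5 tumors. The Ly49 family genes Klra2 and Klra17 were at 0.59, 0.49 and 0.32, and at 1.18, 0.89 and 0.68.

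Of 12 other transcription factors of the NK lineage, 4, 2 and 0 were higher at the unadjusted threshold, with Id2, which NK cells need for their development, at 0.95 (SE 0.32), 0.71 (SE 0.32) and 0.40 (SE 0.32). Ets1, a factor of lymphocyte development, was at 0.08, 0.04 and -0.17, and Zeb2 at 0.68, 0.45 and -0.43. Of 11 activating cytokines and their receptors, 4, 3 and 3 were higher, with Il2rg, the common gamma chain, at 0.35, 0.38 and 0.60, Il15ra, the receptor chain that presents IL-15, at 0.21, 0.37 and 0.42, and Il18rap, a chain of the IL-18 receptor, at -0.05, 0.00 and -0.17. Of 15 other NK surface molecules, 7, 3 and 1 were higher and 0, 0 and 1 lower. Fcgr3, the Fc receptor CD16, was at 0.67, 0.54 and 0.41, Itgam, the integrin CD11b, at 0.57, 0.40 and 0.43, and Il2rb, the receptor chain shared by IL-2 and IL-15, at 0.73, 0.40 and 0.02. Fcgr3, Itgam, Zeb2 and Klra2 averaged 151.6, 76.4, 127.7 and 53.3 CPM over all mice, against 7.53 for Ncr1. Macrophages and neutrophils also express Fcgr3 and Itgam, and which cells gave the reads of these genes was not tested. Of 9 ligands of the receptors, 2, 2 and 3 were higher and 0, 0 and 2 lower. H2-T23 encodes Qa-1, the ligand of CD94/NKG2A, and was at 0.49, 0.51 and 0.64 (SE 0.24 each). The classical MHC class I genes H2-K1 and H2-D1 were at 0.11, 0.07 and 0.30, and at 0.12, 0.06 and 0.25. With these libraries, 47 and 77, left out, the counts for the WT combination were 0 of 13 adaptors (median 0.28), 7 of 14 effectors (median 0.49), 1 of 12 other lectin-like receptors, 0 of 12 transcription factors, 3 of 11 cytokines and receptors, 0 of 9 ligands, and 1 higher and 1 lower of 15 surface molecules, where 3.26% of all genes were higher. Between the WT and anti-TGF-β combinations, where 18.2% of all genes passed the adjusted threshold, 2 of 15 surface molecules, 1 of 12 transcription factors and 2 of 9 ligands were higher, 1 of 9 ligands was lower, and 0 of 12 lectin-like receptors, 0 of 13 adaptors, 0 of 14 effectors and 0 of 11 cytokines and receptors passed. The surface molecules and the factor were Itga2, the DX5 integrin of NK cells (1.46, edgeR adjusted p = 0.023), Zeb2, a factor of NK cell maturation (1.10, adjusted p = 0.023), and Cd96, a receptor of nectin-like ligands (1.49, adjusted p = 0.041). Of the ligands of the receptors, H60b (1.16, adjusted p = 0.028) and Ulbp1 (1.26, adjusted p = 0.033), which bind NKG2D, were higher, and Clec2d (-0.48, adjusted p = 0.049), which binds NKR-P1 receptors, was lower. Among 6 markers of innate lymphoid and γδ T cells, 1 passed, Tmem176a, which was lower (-0.83, adjusted p = 0.023). Without libraries 47 and 77, where 11.9% of all genes passed, Ulbp1 (1.28, edgeR adjusted p = 0.044) and Tmem176a (-0.80, adjusted p = 0.032) passed. Itga2 (0.97, adjusted p = 0.083), Zeb2 (0.79, adjusted p = 0.063), H60b (1.07, adjusted p = 0.051), Clec2d (-0.52, adjusted p = 0.061) and Cd96 (0.50, adjusted p = 0.426) did not. Without the 6 libraries rich in B cell markers, 0% of all genes passed in this comparison. Between the FcD and anti-TGF-β combinations, Itga2 (1.27, adjusted p = 0.049), 1 of 15 surface molecules, and H60b (1.12, adjusted p = 0.048), 1 of 9 ligands, passed, where 6.46% of all genes did, and 0 of the genes in the other NK lists passed. With the library part as a covariate neither Itga2 nor H60b passed in that comparison, and without the libraries rich in B cell markers 0% of all genes did.

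Of 11 T cell markers tested, 1 had an unadjusted p under 0.05 and was higher in each combination, against 13.2%, 10.7% and 8.49% of all genes. Cd3g was at 0.96, 0.28 and -0.13, Cd8a at 0.77, 0.00 and -0.57, and Trbc2 at 0.68, 0.14 and 0.03 on the log2 fold change scale. The sum over all 12 T cell markers of the list, of which Trat1 did not pass the filter on low counts, was 37.3 to 99 CPM under isotype control and 42.1 to 380.1 CPM under the WT combination. It was 42.3 to 162 CPM under the FcD combination and 33.6 to 106 CPM under the anti-TGF-β combination. Of 7 macrophage and neutrophil markers, 5, 5 and 2 were higher, with sums of 1390 to 2187 CPM under isotype control and 1457 to 7590, 2275 to 4079 and 1921 to 3102 CPM under the WT, FcD and anti-TGF-β combinations. Log2 fold changes were 1.54, 1.05 and 0.21 for Adgre1, 0.68, 0.55 and 0.11 for Csf1r, and 0.76, 0.69 and 0.47 for Lyz2. Of 6 markers of innate lymphoid and γδ T cells, 3, 2 and 2 were higher, with Il1rl1 at 0.44, 0.29 and 0.01, Itga1 at 0.99, 1.01 and 0.65, and Tmem176a at -0.38, -0.19 and 0.45. Of 3 B cell markers, 0, 0 and 3 were higher, with Ms4a1 at 1.98, 1.90 and 4.03, Cd79a at 1.03, 1.47 and 3.78, and Cd79b at 1.66, 0.61 and 1.83. The values of the anti-TGF-β combination rested on library 68, whose B cell marker sum was 68.6 CPM against 2.92 to 4.12 CPM in the other 4 tumors. Without it Ms4a1 was at 0.95, Cd79a at 0.66 and Cd79b at 0.23 (edgeR unadjusted p = 0.5745, 0.613 and 0.793). Ptprc had a log2 fold change of 1.17 (SE 0.42), 0.84 (SE 0.42) and 0.18 (SE 0.42). Without libraries 47 and 77, 0 of 11 T cell markers, 0 of 7 macrophage and neutrophil markers and 2 of 6 innate lymphoid markers were higher under the WT combination. In library 77 Ptprc was at 782 CPM, against 152, 158, 170 and 248 CPM in the other tumors of its group. The part of these cells in the levels of the 9 genes was not tested.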

How the data were processed

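Total RNA of tumor fragments was made into TruSeq Stranded mRNA libraries and sequenced paired-end. Per the labels, the authors processed the reads with STAR 2.5.3a, SAMtools 1.6 and HTSeq 0.9.1 on GRCm38. They deposited 1 table of raw read counts for 40 mice, and the annotation is not given in the sources used here. The counts were tested with edgeR 4.0.16 (R 4.3.3, limma 3.58.1) by robust quasi-likelihood in 1 fit of all 8 groups, with TMM scaling, filterByExpr and Benjamini-Hochberg adjustment over 14760 genes, and a gene was called at an adjusted p under 0.05. DESeq2 1.42.0 served as an alternative. Levels are CPM (counts scaled to a library total of 1000000 with TMM), and correlations and ratios used log2 CPM with a prior count of 2 (Python 3.11.15, numpy 2.4.6, scipy 1.17.1, pandas 2.3.3, matplotlib 3.10.9). Groups came from the labels. The labels do not say whether the mice shared cages or extraction days. Counting error limits genes under about 20 counts per library. The 9 genes and the gene lists were chosen with earlier results of these data known. Beyond Cd3e, Trat1, overlapping genes and markers of sex and tumor cells, the genes named followed a rule. They were the 9, the 3 most abundant genes of each list, list genes past the adjusted threshold, and the 10 genes most like Ncr1. The fits were tested on simulated data. Scaling, filter, test, samples in the fit and each mouse left out were varied. A gene of the B cell marker list is not reported here and was left out of its sums.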

Additional observations from a re-analysis of the deposited data

Results flagged for a closer look

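In 72 sets of 5 mice (9 genes in 8 groups), 10 held a mouse far from the other 4 by Dixon's test at its 95% critical value of 0.71, where chance alone gives about 1 in 20. Of the 10, 5 were library 77, replicate 5 of the WT combination, which was at 3.67 CPM of Klrb1c (next mouse 1.69), 12.8 of Klre1 (4.17), 45.3 of Klrd1 (11.4), 34.5 of Klrc1 (10.8) and 11.7 of Eomes (4.53). Replicate 1 of anti-PD-1 FcS, library 47, was at 0.517 CPM of Klrb1c, where the next mouse was at 1.17. In the same group replicate 2, library 52, was at 6.90 CPM of Tbx21, against 2.31 in the next. In the FcD combination, library 44 was at 18.2 CPM of Klrd1 (next 9.86) and 7.35 CPM of Eomes (next 4.59). In the isotype control group, library 74 was at 0.943 CPM of Eomes, where the next mouse was at 3.33.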

How the results depend on the processing

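No paired analysis was possible because the labels give the mice no replicate numbers, and those used here only name the mice of a group in the order of deposition. Each comparison was also run with DESeq2 size factors, without the filter, with the DESeq2 Wald test, with only the compared groups in the fit, with the library part (41 to 60 or 61 to 80) as a covariate, and without each mouse in turn. A further 2 alternatives were chosen after seeing the data: without libraries 47 and 77, and without the 6 libraries with over 20 CPM of B cell markers. With 0 of 9 genes called in all 22 comparisons of the main analysis, the DESeq2 Wald test also called 0, with 8 of 9 genes at an unadjusted p under 0.05 and higher in the WT combination against anti-PD-1 FcS (12.3% of all genes) and 5 of 9 in the FcD combination against anti-GARP:TGF-β1 FcD (13.7%). The fit with the library part as a covariate also called 0 of the 9 in each of the 22 comparisons. Signs were checked for the 9 genes in the combinations against isotype control and wherever the unadjusted p was under 0.05, and none turned. That fit put 8 of 9 (11.3% of all genes) and 5 of 9 (13%) at an unadjusted p under 0.05 and higher in the same 2 comparisons. It put 5 of 9 (13.5%) there in the WT combination against isotype control and 3 of 9 (16.5%) against anti-GARP:TGF-β1 WT. DESeq2 gave no adjusted p for 5 of the 9 genes in the anti-TGF-β combination against isotype control and for 8 against anti-PD-1 FcS.

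With only the compared groups in the fit, 1 gene (Klrk1) was called in the FcD combination against isotype control and 2 (Klrk1, Tbx21) against anti-GARP:TGF-β1 FcD. In the latter comparison 3 genes were called without libraries 47 and 77, which were picked by these genes (6.11% of all genes called), and 2 without the B cell-rich libraries (8.88%). Leaving out 1 mouse gave 0 to 1 calls in the anti-TGF-β combination against isotype control (Klrb1c, without isotype control replicate 3 or treated replicate 1), 0 to 1 in the FcD combination against anti-GARP:TGF-β1 FcD (Klrb1c, without treated replicate 2) and 0 to 1 between the WT and anti-TGF-β combinations (Klrc1, without anti-TGF-β combination replicate 1). In the WT combination against anti-PD-1 FcS it gave 0 to 4 calls, with Klrc1, Klrd1, Klrk1 and Tbx21 called without anti-PD-1 FcS replicate 2.

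Some fitted log2 fold changes changed sign against isotype control. In the WT combination, Klre1 was -0.24 without libraries 47 and 77 and -0.25 without the B cell-rich libraries, and -0.24 to 0.67 with 1 mouse left out. Tbx21 was -0.0376 and -0.0452 in the same alternatives, and -0.0371 to 0.92 with 1 mouse left out. In the FcD combination Klre1 ran from -0.13 to 0.10, and in the anti-TGF-β combination Klrc1 ran from -0.72 to 0.0021 and Tbx21 from -0.28 to 0.0438. With Cd3e in place of Ptprc the log2 ratio of Ncr1 differed from isotype control by 0.14 in the WT and 0.50 in the FcD combination, and that of Cd8a by 0.0718 in the WT combination. The Ncr1 to Ptprc ratio in the FcD combination ran from -0.48 to 0.0177 with 1 mouse left out. The cause was not tested. Correlations with an adjusted p under 0.05 numbered 52 to 62 of 63 across the alternatives. These are 5 tumors a group, and differences under about 1 on the log2 scale in Klrc1, Tbx21 and Klrd1 are within the 95% intervals. In the WT combination against isotype control their SEs were 0.573, 0.476 and 0.463, at median counts of 77, 45 and 108 per library. Klrb1c and Klra7 had fewer reads, at median counts of 19.5 and 22.5, but smaller SEs of 0.334 and 0.304. What set the width of these intervals was not tested.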
